A study of Mus musculus with 4 samples.

Results

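The circular RNAs described here come from the fibronectin locus of the mouse, the gene Fn1, on the minus strand of chromosome 1 in mm9. They are all the circles that the deposited lists place on that strand within the locus, whatever their type and read number. The rule found 516 of the 69136 circles in the series, of which 501 were intronic (of 65062) and 15 were exonic (of 4074). An exonic circle joins the end of an exon to the start of the same or an upstream exon. An intronic circle begins at the 5' splice site of an intron and closes on a base further along the same intron. Together they span chr1:71632328-71699405. The lists carry no gene symbols, so the gene name comes from the position and not from an identifier in the files. Positions below are mm9, counted from 1, and exons and introns are numbered as in the Ensembl transcript ENSMUST00000097700 unless another model is named.

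The study counted reads across back-splice junctions in C2C12, a line of mouse myoblasts whose cells fuse to form myotubes once serum is reduced. All cells had spent 3 to 4 days in differentiation medium with 2% horse serum, and the labels name no genetic change in them. The control group was 2 libraries of total RNA, and the other group was 2 libraries of RNA prepared by RPAD, in which RNase R digests linear RNA for 30 min, the linear RNA left is polyadenylated and poly(A)+ RNA is then removed. The protocol in the labels names HeLa RNA in the RNase R step, while all 4 libraries are labelled C2C12, and this was not resolved. Whether the libraries within a group stem from separate cultures is not in the labels, so p-values measure only the spread among the 4 libraries, and that spread may be technical. Myoblast and myotube markers were not analysed here, because the files pair no circle with a gene symbol. The genes of the fibronectin matrix pathway were not analysed here for the same reason.

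Fibronectin is a secreted glycoprotein of the extracellular matrix. Its dimers bind integrins on the cell surface and are drawn out into fibrils, on which myoblasts attach and migrate. The protein is built of repeated modules encoded by many short exons, and its pre-mRNA is a textbook case of alternative splicing, with the extra domain A and extra domain B exons and the variable region included or left out. When an intron is removed it is released as a lariat, whose 5' end is joined to a branch point inside the intron. Most lariats are opened and degraded, and those that escape can persist as intronic circles. Such molecules lack a poly(A) tail, and RNase R does not digest the closed part of a lariat.

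Total RNA 1 and 2 had 38850 and 35981 back-splice reads, and RPAD 1 and 2 had 150478 and 191246. Of these, 22671, 20589, 94507 and 99378 reads were on intronic circles. Where 4 values are given in a row, here and below, their order is total RNA 1, total RNA 2, RPAD 1 and RPAD 2. Levels are given as reads and as shares of a library's back-splice reads of the same type, so each is relative to the other circles of its library. Intervals are exact Clopper-Pearson intervals at 95%, and since reads carried no molecular identifiers they cover counting error only.

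The fibronectin locus took the highest mean share of intronic back-splice reads of 5266 hosts (a host is a group of transcript models that share a junction or an intron). Total RNA 1 and 2 gave 375 and 317 reads of its intronic circles, and RPAD 1 and 2 gave 1523 and 1391. These were 1.65% (interval 1.49 to 1.83%) and 1.54% (1.38 to 1.72%) of the intronic reads of total RNA, and 1.61% (1.53 to 1.69%) and 1.40% (1.33 to 1.47%) of those of RPAD. The values of both groups overlapped, with RPAD 2 lowest and total RNA 1 highest, and the highest value was 1.18 times the lowest. By library the locus ranked 2, 1, 7 and 5 among hosts. Its mean share over the 4 libraries was 1.55% (SD 0.112). The host with the next highest mean, at chr2:52006057-52175258, varied more, from 0.743% in total RNA 2 to 1.90% in RPAD 1, or 2.56-fold.

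**Figure D1:**
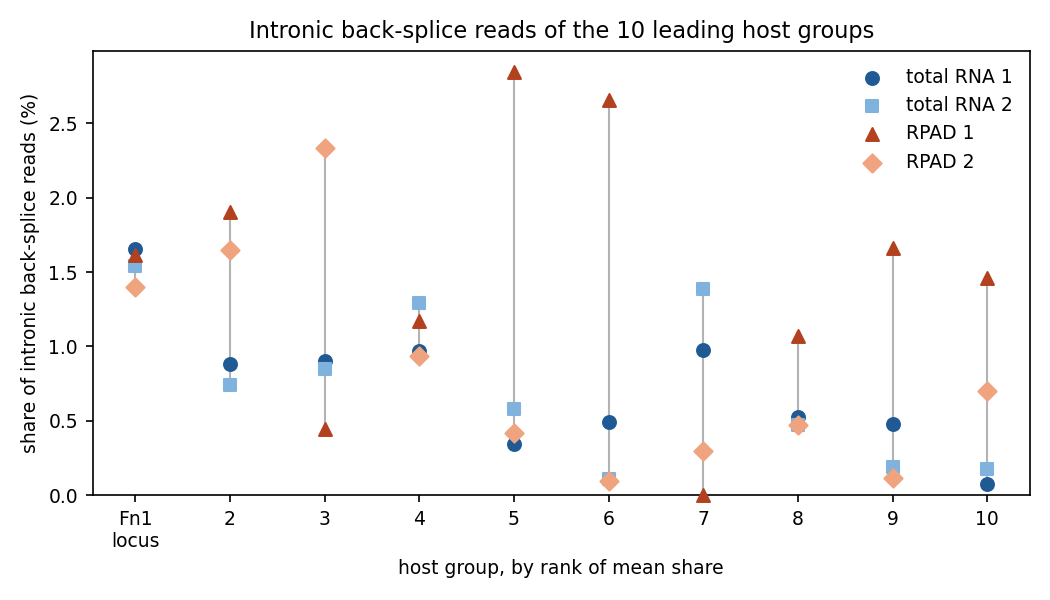
Share of intronic back-splice reads (percent, vertical axis) of the 10 hosts with the highest mean share, ordered by that mean (horizontal axis), with 1 point for each of the 4 libraries and a line over their range. The fibronectin locus, at rank 1, lies between 1.40 and 1.65% in all 4, a narrower range than that of each of the other 9.

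The locus's share of intronic reads differed less between RPAD and total RNA than between both RPAD libraries. The mean was 1.60% ± 0.0809 (SD, n = 2) in total RNA and 1.51% ± 0.150 (SD, n = 2) in RPAD. An exact two-sided permutation test gave p = 0.667, and with 2 libraries against 2 it cannot go below 0.333. The direction turned when RPAD 2 was left out, with a difference of 0.0146 percentage points. When only circles with at least 2 reads in a library were counted, in the locus and in the library alike, the shares were 3.02, 2.46, 1.62 and 1.44%. With at least 5 reads they were 10.6, 10.8, 1.66 and 1.64%. Under both minimums the total RNA libraries lay above the RPAD libraries (exact permutation p = 0.333, the smallest possible), and these minimums fall on libraries of different depth. Both groups were labelled with the same cells and medium, and they differ in how the RNA was prepared. All libraries are bulk, so within any of them fewer cells of a type and less RNA per cell cannot be told apart.

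The locus was also tested as a single host, with all 406, 331, 1523 and 1405 of its reads. In edgeR's quasi-likelihood test its log2 change in RPAD against total RNA was -0.45 (SE 0.53), with a Benjamini-Hochberg adjusted p of 0.845. That p was between 0.617 and 1 over the alternatives run, and the change was between -0.78 and -0.20. The change lay at percentile 55.8 of all tested hosts, whose median was -0.93 under TMM scaling, -0.87 with library totals alone and -0.71 in DESeq2. Of the 1424 hosts tested, edgeR called 0 (0%), while 17 were higher and 359 lower where the unadjusted p was under 0.05, and DESeq2 called 3 higher and 101 lower, the locus not among them.

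The locus gave almost only intronic circles. Their share of its reads was 92.4% (interval 89.3 to 94.8%) and 95.8% (93.0 to 97.7%) in total RNA, and 100% (99.8 to 100%) and 99.0% (98.3 to 99.5%) in RPAD. The rest of each library stood at 58.0, 56.9, 62.4 and 51.6%. The locus was above the rest of its library in 4 of 4 libraries, and its value was higher in both RPAD libraries than in either total RNA library. The means were 94.1% ± 2.41 (SD, n = 2) and 99.5% ± 0.705 (SD, n = 2), with an exact two-sided permutation p of 0.333, the smallest possible. Counting only circles with at least 2 reads in a library gave 91.4, 96.4, 100 and 99.2%, still apart. With at least 5 reads the shares were 87.1, 100, 100 and 99.3%, and the groups overlapped.

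A larger share of its intronic circles than of the series' recurred between libraries, a difference that was not tested. Of the 501, 318 (63.5%) were listed in 1 library, against 91.2% for the whole series. A further 108 were listed in 2, 47 in 3 and 28 in 4 libraries. The locus held 0.770% of all intronic circles but 28 of the 168 (16.7%) that were listed in all 4 libraries. Of those 28, 25 were circles of intron 15, 2 of intron 11 and 1 of intron 4, so they describe mainly 1 intron. Nor was this particular to the locus, since 1 intron of another host, at chr2:52057532-52058028, had 39 closing points listed in all 4 libraries. There were 148 and 132 intronic circles of the locus in the total RNA libraries and 216 and 291 in the RPAD libraries, and the groups did not overlap (exact permutation p = 0.333, the smallest possible). After each library was thinned to 35981 back-splice reads, the mean of 20 random draws was 141.6, 132, 136.45 and 143.75 circles, and the groups overlapped (exact permutation p = 0.667). Each circle of the locus had 2.53 and 2.40 reads on average in the total RNA libraries and 7.05 and 4.78 in the RPAD libraries. The intronic circles of the whole library had 1.35, 1.40, 6.32 and 3.88, a lower value in each of the 4 libraries.

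The reads came from 28 introns, and 5 of these held most of them. Introns 15, 11, 21, 4 and 32 together held 82.1 and 71.3% of the locus's intronic reads in the total RNA libraries and 77.7 and 79.7% in the RPAD libraries. They have 27 different 5' splice sites, since 2 of the introns, from different transcript models, share one. Circles of 8 of these sites were listed in all 4 libraries, of 4 in 3 libraries, of 5 in 2 and of 10 in 1. By library, 19 and 17 sites had circles in the total RNA libraries and 14 and 14 in the RPAD libraries. The introns were 150 to 3154 nt long, with a median of 1111.5 nt, against 1350 nt for the 7831 other introns with circles in the series. Of the 7762 other 5' splice sites with circles, 124 (1.60%) had them in all 4 libraries.

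**Figure D2:**
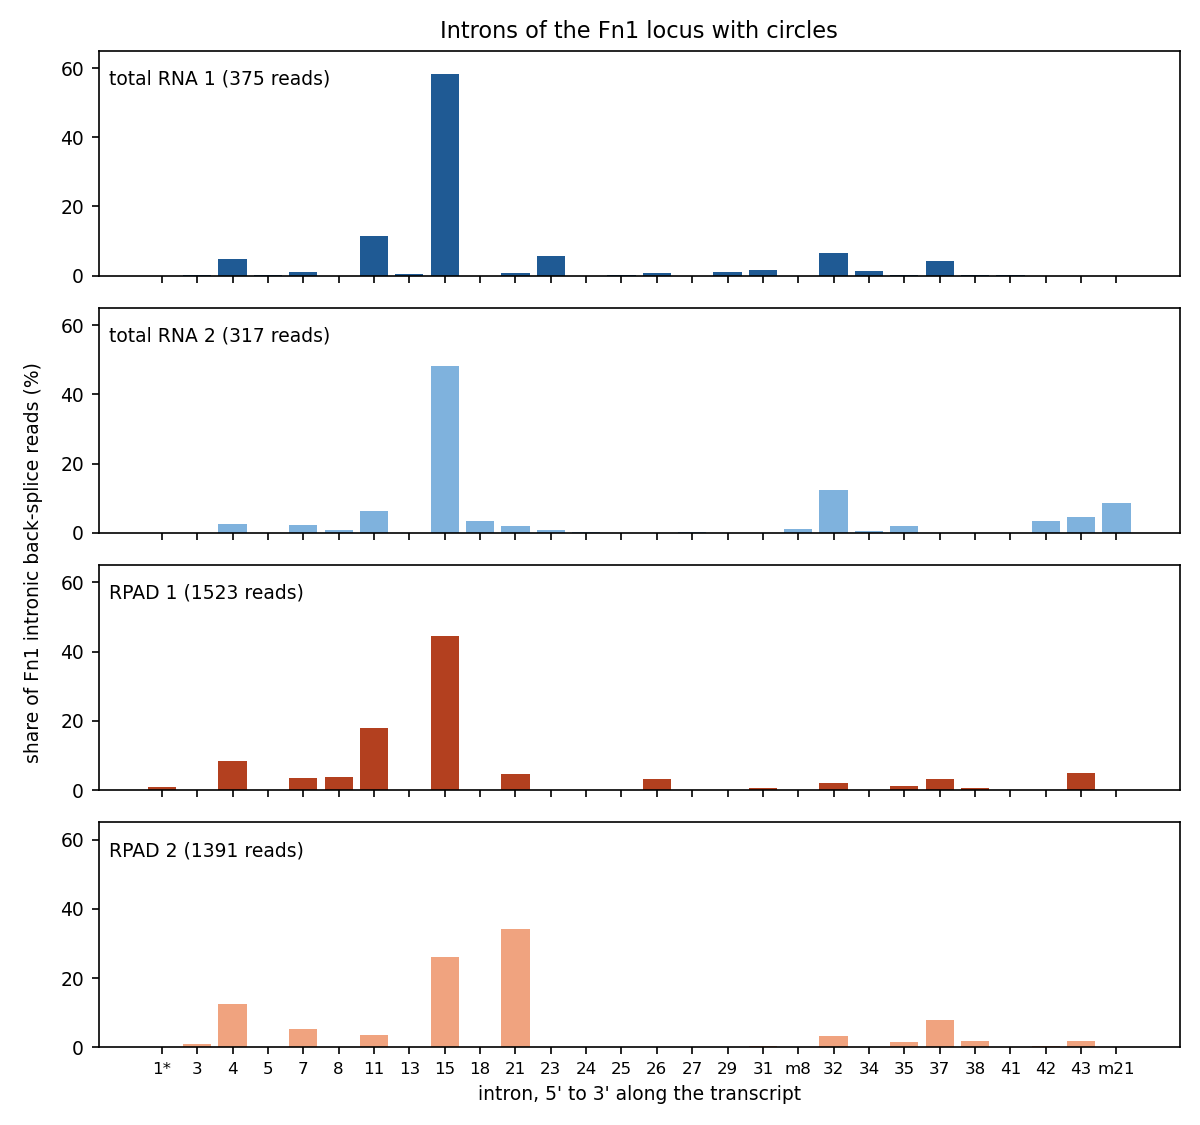
Share of the locus's intronic back-splice reads (percent, bars) by intron of the fibronectin locus from 5' to 3' (horizontal axis), with 1 panel for each of the 4 libraries. Numbers are those of ENSMUST00000097700, an asterisk marks a number in ENSMUST00000055226 and an m a number in an assembled model (m8 shares the 5' splice site of 31), and intron 15 leads in 3 libraries while intron 21 leads in RPAD 2 with 34.1%.

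Intron 15 (chr1:71675111-71675889, 779 nt) was the main source. It gave 219 and 153 reads in total RNA 1 and 2, and 677 and 365 in RPAD 1 and 2. These were 58.4, 48.3, 44.5 and 26.2% of the locus's intronic reads, highest in both total RNA libraries and lowest in RPAD 2, with no overlap between groups. In edgeR its log2 change in RPAD was -1.52 (SE 1.54), with a Benjamini-Hochberg adjusted p of 0.819, so it did not pass the test.

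Circles of intron 15 closed mostly within the same stretch of the intron in every library. All began at the first base of the intron, and 41 different lengths were listed, from 100 to 779 nt with a median of 122 nt. Of these, 25 (61.0%) were listed in all 4 libraries, with lengths of 103 to 110, 112, 113, 115, 118, 119, 122, 124, 126, 128 to 131 and 133 to 137 nt. A window from the shortest to the longest of these 25 (103 to 137 nt from the 5' splice site) was set by these reads. It held 92.7 and 95.4% of the intron's reads in the total RNA libraries and 97.3 and 95.6% in the RPAD libraries. Within that window of 35 positions, 34 were used in at least 1 library. The circle that spans the whole intron, 779 nt, had 2 reads, both in total RNA 1.

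The commonest circle of intron 15 was 122 nt long (chr1:71675768-71675889) in each library. It had 29 and 20 reads in the total RNA libraries and 98 and 37 in the RPAD libraries, or 13.2, 13.1, 14.5 and 10.1% of the intron's reads. Its share in RPAD 2 was the lowest and that in RPAD 1 the highest, so the groups overlapped. It was also the locus's most abundant intronic circle by mean share of intronic reads, and the 8 highest by that measure were all circles of intron 15. The circle of 131 nt had 14 and 14 reads in the total RNA libraries and 52 and 20 in the RPAD libraries. That of 113 nt had 11 and 9 reads in the total RNA libraries and 49 and 31 in the RPAD libraries. The others were 136, 110, 130, 112 and 108 nt long, and had 3 to 15 reads in a total RNA library and 9 to 42 in an RPAD library. None of the 8 passed edgeR's test between the groups.

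**Figure D3:**
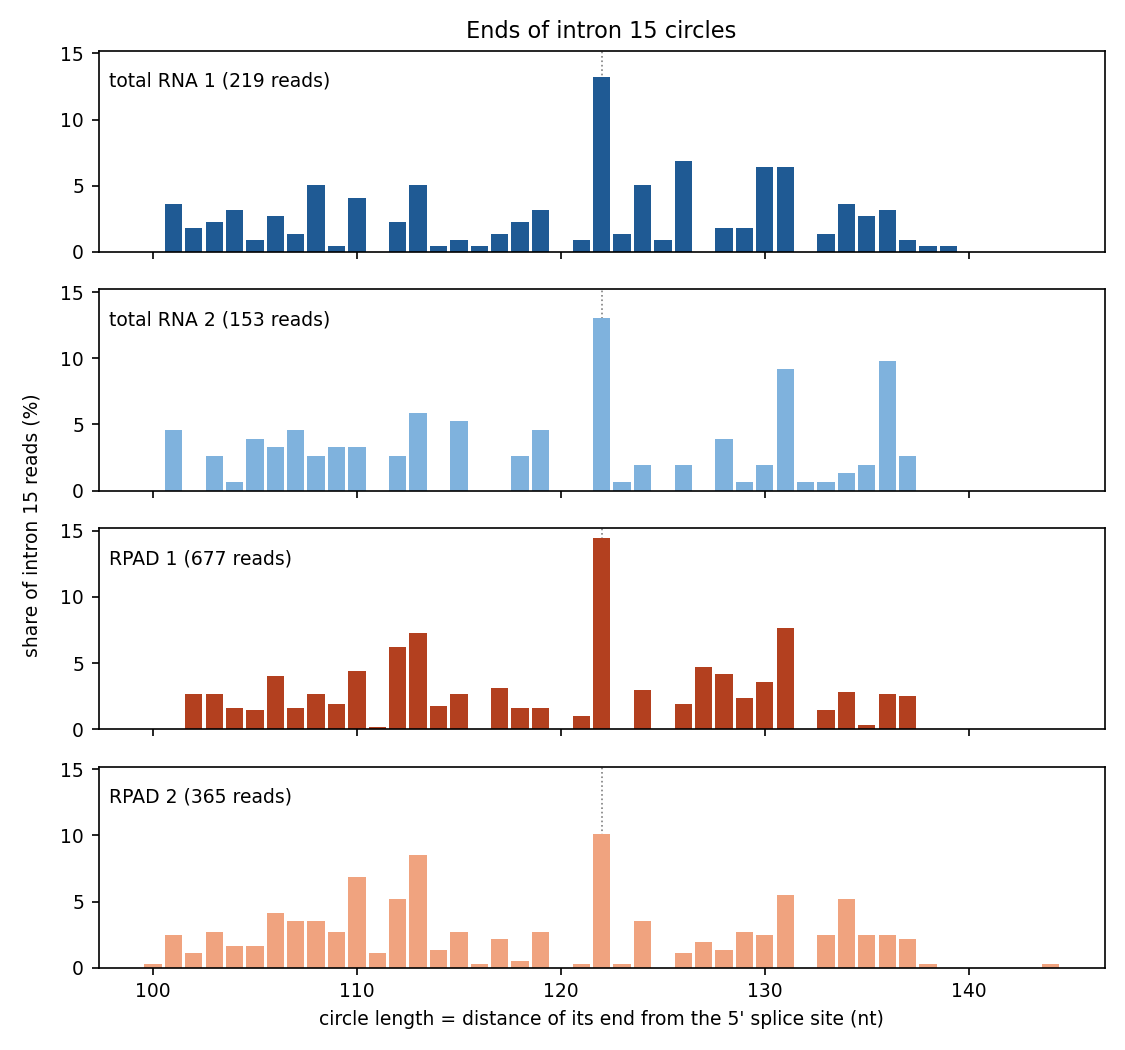
Reads of intron 15 circles (percent of the intron's reads in that library, vertical axis) by distance of the closing point from the 5' splice site (nt, horizontal axis), with 1 panel for each of the 4 libraries and longer circles left out. The highest bar is at 122 nt (dotted line) in each panel, between 10.1 and 14.5%.

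The likeness of these profiles between libraries was set beside that of other introns. In the series, 16 introns had at least 20 intronic-circle reads in each library, and 3 of them were introns 15, 11 and 32 of the locus. Pearson's r between 2 libraries was computed over the closing points of an intron, which share a 5' splice site, a base composition and a library, so r is a description with no p. Intron 15 had the highest median r of the 16, 0.724 over 41 closing points, with library pairs from 0.693 to 0.857. The next intron, at chr2:52057532-52058028, had 0.509 and more than double the reads of intron 15 (3309 against 1414). Intron 15 was also the only intron of the 16 whose commonest closing point was the same in all 4 libraries. Its middle 80% of reads spanned the fewest bases of the 16, at 28 nt. Circles under 100 nt held at most 0.245% of intronic reads outside the locus. The closing points of intron 15 lie close to that length, and whether their span is cut short there was not tested. Intron 11 had a median r of 0.0829 and intron 32 of -0.112, with 384 and 143 reads over 52 and 44 closing points. These are fewer reads per closing point than in intron 15, so the r values do not show whether likeness was shared.

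**Figure D4:**
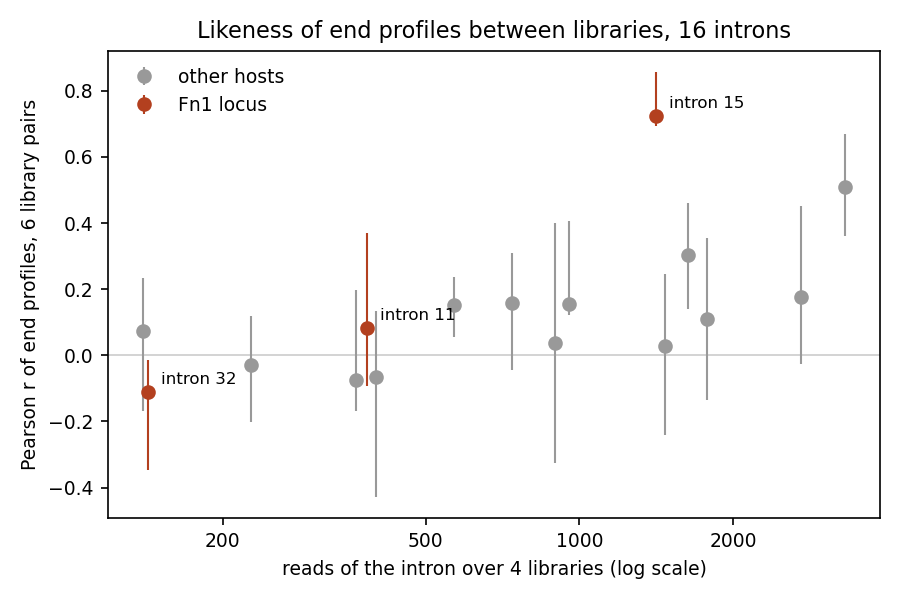
Median Pearson r between libraries of the closing-point profile (vertical axis) against total reads (log axis, horizontal) for the 16 introns with at least 20 reads in each library, with bars from the lowest to the highest of 6 library pairs. Intron 15 lies highest at 0.724, while introns 11 and 32 of the same locus lie at 0.0829 and -0.112.

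Intron 21 (chr1:71666127-71667298, 1172 nt) had most of its reads in a single library. Total RNA 1 and 2 gave 3 and 6 of its reads, RPAD 1 gave 71 and RPAD 2 gave 475. These were 0.8, 1.89, 4.66 and 34.1% of the locus's intronic reads, with RPAD 2 far above the other 3 libraries and both RPAD libraries above total RNA. In edgeR the log2 change was 3.00 (SE 2.39), with a Benjamini-Hochberg adjusted p of 0.692, and it was 1.02 without RPAD 2. Its 86 circles fell into 2 length ranges. Those of 101 to 156 nt had no read in either total RNA library, 33 in RPAD 1 and 441 in RPAD 2, while those of 309 to 423 nt had 3, 6, 38 and 34. The short range was listed in neither total RNA library, whereas the long range was listed in all 4. No single closing point of the intron was listed in all 4 libraries.

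Intron 11 (chr1:71683970-71685030, 1061 nt) had 43 and 20 reads in the total RNA libraries and 273 and 48 in the RPAD libraries, or 11.5, 6.31, 17.9 and 3.45% of the locus's intronic reads. RPAD 1 was highest and RPAD 2 lowest, so total RNA lay within the range of RPAD. Its log2 change in edgeR was -0.70 (SE 2.14, Benjamini-Hochberg adjusted p 0.999), and 0.13 without RPAD 2. Of its 52 circles, 2 were listed in all 4 libraries, at 121 and 134 nt.

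Intron 4 (chr1:71694721-71695767, 1047 nt) had 18 and 8 reads in the total RNA libraries and 129 and 175 in the RPAD libraries. These were 4.8, 2.52, 8.47 and 12.6% of the locus's intronic reads, higher in both RPAD libraries than in either total RNA library. In edgeR the log2 change was 0.57 (SE 2.10, Benjamini-Hochberg adjusted p 0.999). Of its 40 circles, 1 was listed in all 4 libraries, at 120 nt, with 1, 1, 15 and 16 reads.

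**Figure D5:**
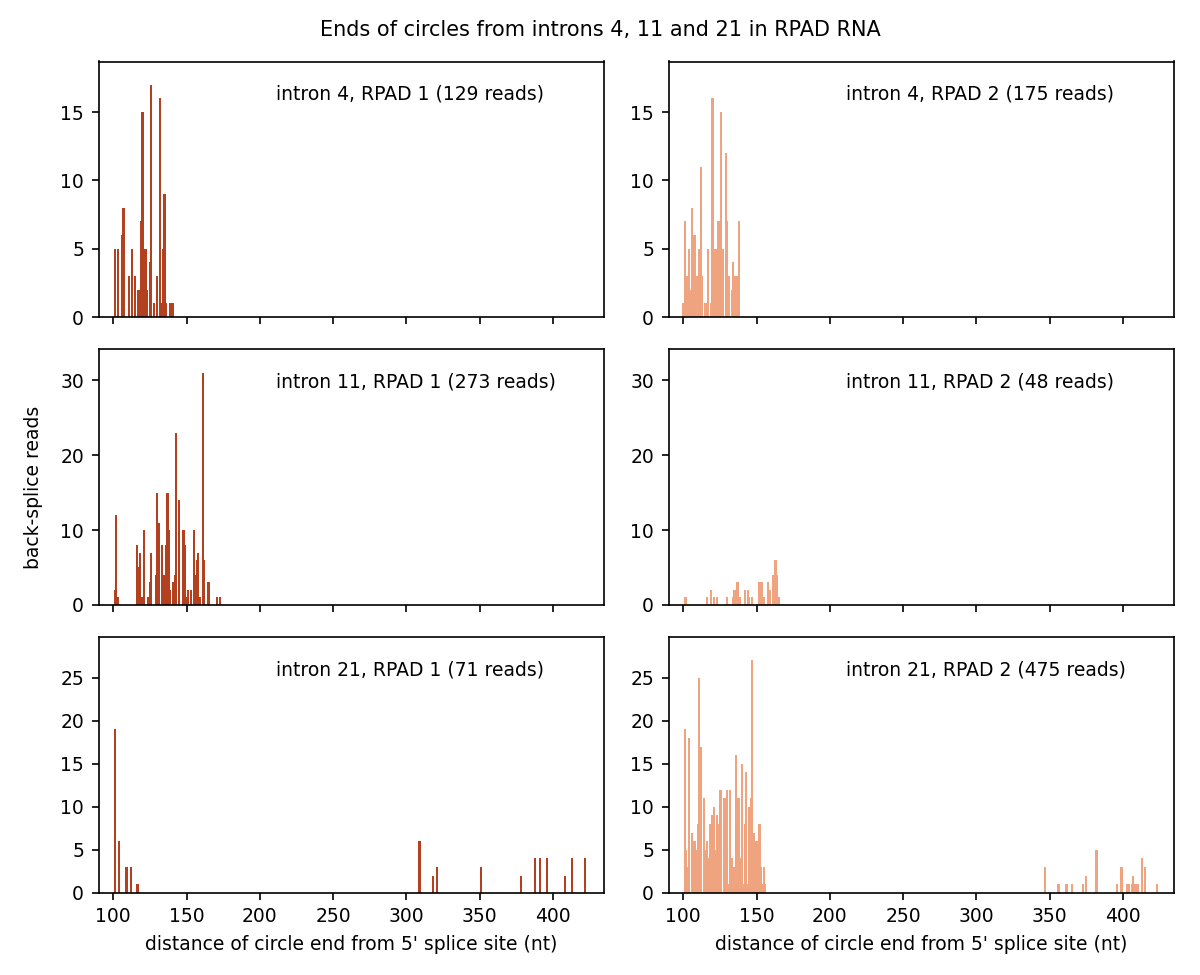
Back-splice reads (vertical axis) of circles of introns 4, 11 and 21 by distance of the closing point from the 5' splice site (nt, horizontal axis) in RPAD 1 (left) and RPAD 2 (right). Intron 21 shows 2 ranges, 101 to 156 nt and 309 to 423 nt, and the shorter has 33 reads in RPAD 1 and 441 in RPAD 2.

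Intron 32 lies directly after an exon of 270 nt (chr1:71650234-71650503), exon 32 here and exon 33 of ENSMUST00000055226, which has the length of the alternatively spliced extra domain A exon. The intron (chr1:71649072-71650233, 1162 nt) had 25 and 39 reads in the total RNA libraries and 33 and 46 in the RPAD libraries. These were 6.67 and 12.3% of the locus's intronic reads in the total RNA libraries and 2.17 and 3.31% in the RPAD libraries, with no overlap. Its log2 change in edgeR was -2.65 (SE 2.19, Benjamini-Hochberg adjusted p 0.715). All of its 44 circles were missing from at least 1 library. Intron 31 lies before the same exon, and an assembled model named in total RNA 2 has an intron that skips the exon and shares the 5' splice site of intron 31. The circles of that site were 102 to 120 nt long, so their reads cannot be assigned to either intron. The site had 6, 4, 11 and 4 reads. Intron 21 has the same number in ENSMUST00000055226, while intron 26 is its intron 27, so that transcript has a further exon between them. The circles do not give its position. The assembled model has an exon that ends within intron 24, which no listed exonic circle reached. Whether either is the extra domain B exon was not determined.

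Of the 27 sites, 11 had reads in total RNA alone and 1 in RPAD alone, against 65.6% and 20.9% of the 7789 sites in the series. Intron 23 had 21 reads in total RNA 1, 3 in total RNA 2 and 0 in either RPAD library. It had 17 circles of 143 to 224 nt. An intron of 150 nt near the 3' end of the gene (chr1:71632331-71632480), from an assembled model, had 27 reads on 18 circles in total RNA 2 and 0 in the other libraries. Intron 18 had 11 reads in total RNA 2 and 0 elsewhere, all on 1 circle of 916 nt that spans the whole intron. Intron 43, the longest at 3154 nt, had 0, 15, 77 and 25 reads on circles of 194 to 212 nt. Intron 7 had 4 and 7 reads in the total RNA libraries and 54 and 72 in the RPAD libraries. Intron 37 had 16 and 0 reads in the total RNA libraries and 48 and 111 in the RPAD libraries. The RPAD libraries held more reads, so these counts alone do not compare the groups. As shares of the locus's intronic reads, intron 7 stood at 1.07, 2.21, 3.55 and 5.18%, with no overlap between groups. Intron 37 stood at 4.27, 0, 3.15 and 7.98%, and the groups overlapped.

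No intron or circle of the locus passed the test between RPAD and total RNA. Of the 28 introns, 14 passed the filter on low counts, and edgeR called 0 of them at a Benjamini-Hochberg adjusted p under 0.05, as it did of all 1026 introns tested (0%). At an unadjusted p under 0.05, 0 were higher and 1 was lower, against 0.682% higher and 27.9% lower over all introns tested. The lower one was intron 23, which had 0 reads in both RPAD libraries and so passed the filter through total RNA alone. Its log2 change of -8.75 (edgeR, Benjamini-Hochberg adjusted p 0.113) rests on those 0 counts and is not a measured size. With reads pooled by group, a limit of 3 counts for RPAD would put it at least 35.9-fold lower, or 9.42-fold without total RNA 1. That limit covers counting error only, and total RNA 1 gave 21 of the reads against 3 in total RNA 2. As the intron passed the filter through total RNA, the limit is no support for a difference between the groups. Over the alternatives run the log2 change was between -9.89 and -7.08. The median log2 change of the 14 was 0.05, against -0.94 for all introns tested, and 7 of the 14 were above 0. That median was 0.52 (against -0.51) with library totals alone, 0.24 (against -0.78) in DESeq2, and -1.47 (against -4.41) without RPAD 1, where 5 of the 14 were above 0. DESeq2 called 90 introns lower, 0 of them in the locus.

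Of the 516 circles, 38 passed the filter, and edgeR called 0 of them, as it did of all 924 circles tested (0%). At an unadjusted p under 0.05 it found 0 of the 38 in either direction, against 1.73% higher and 15.8% lower over all circles tested, and DESeq2 called 0. Of the 38, 6 had a log2 change above 0 and 32 below, with a median of -1.07 against -0.15 for all tested. Most of the 38 were circles of intron 15, which share a 5' splice site. The split and the medians below therefore describe that intron more than the locus. Under library totals alone the split was 8 and 30 and the medians -0.71 and 0.04, and in DESeq2 9 and 29 with -0.72 and 0.19. Without RPAD 2, 1 circle of the locus was called, that of 101 nt in intron 15 (chr1:71675789-71675889). Total RNA 1 and 2 gave 8 and 7 reads of it, RPAD 1 gave 0 and RPAD 2 gave 9. These were out of 22671, 20589, 94507 and 99378 intronic reads, so the share in RPAD 2 was below that of either total RNA library. Without RPAD 2 its log2 change was -7.48, against -3.00 with all 4 libraries (edgeR, Benjamini-Hochberg adjusted p 0.915).

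Reads of intronic circles of the locus were mostly on short circles. Their median length, weighted by reads, was 125 and 124 nt in the total RNA libraries and 124 and 123 nt in the RPAD libraries, against 158, 168, 152 and 143 nt for the other intronic circles of each library. Circles of 100 to 140 nt held 81.3, 79.2, 78.7 and 82.1% of the locus's intronic reads, against 39.1, 33.9, 42.2 and 48.1% elsewhere. Those over 300 nt held 2.67, 6.31, 2.50 and 2.44%, against 14.0, 15.7, 9.62 and 7.74%. Intron 15 carried much of this, with 99.1, 100, 100 and 99.7% of its reads on circles of 100 to 140 nt. Without it the locus stood at 56.4, 59.8, 61.6 and 75.8%, with median lengths of 134, 134, 132 and 126 nt. With and without intron 15, each of these measures put the locus on the same side of the rest of its library in 4 of 4 libraries. Circles of under 100 nt held 0, 0, 0 and 0.935% of the locus's intronic reads, and at most 0.245% of those outside it.

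All 501 intronic circles began at the first base of their intron. Of these, 481 (96.0%) closed over 100 nt before the 3' splice site, against 98.4% of the other intronic circles, while 3 closed exactly at it and 1 ran 3 nt past it into the next exon. Whether the closing points are branch points was not tested. Each file entry also carries a score from 0 to 3, and the sources used here do not give its meaning. A score above 0 was given to 5.41 and 18.9% of its intronic circles in the total RNA libraries and to 4.63 and 0.687% in the RPAD libraries. For other intronic circles these shares were 39.8, 36.3, 34.9 and 36.0%, higher in each of the 4 libraries.

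Exonic circles of the locus were few and had few reads. Total RNA 1 and 2 gave 31 and 14 reads of the 15 circles, RPAD 1 gave 0 and RPAD 2 gave 14. These were 0.192% (interval 0.130 to 0.272%) and 0.0910% (0.0497 to 0.153%) of the exonic reads of total RNA, and 0% and 0.0152% (0.00833 to 0.0256%) of those of RPAD. A limit of 3 counts puts the share in RPAD 1 at up to 0.00536%, and the Clopper-Pearson upper bound is 0.00659%. Both RPAD libraries were below both total RNA libraries. This held with at least 2 reads per circle (0.175, 0.0608, 0 and 0.0109%). With at least 5 reads the shares were 0.198, 0, 0 and 0.00766%, and the groups overlapped. The means over all circles were 0.141% ± 0.0712 (SD, n = 2) in total RNA and 0.00762% ± 0.0108 (SD, n = 2) in RPAD, with an exact two-sided permutation p of 0.333, the smallest possible. Without total RNA 1 the difference between the groups was -0.0833 percentage points, against -0.134 with all libraries. The locus ranked 232 among 2409 hosts of exonic circles by mean share, against 1 for intronic circles.

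A single circle in a single library held most of the exonic reads of total RNA. The circle of exons 26 and 27 (chr1:71655987-71657592, 360 nt spliced) had 27 reads in total RNA 1 and 0 in the other 3 libraries. It made up 87.1% of the locus's exonic reads in total RNA 1. In RPAD 2, the circle of exon 22 (chr1:71665958-71666126, 169 nt) led with 7 reads and was listed in no other library. That exon follows intron 21, which led the intronic circles of the same library. The circle of exon 12 (chr1:71683826-71683969, 144 nt) had 1, 3, 0 and 1 reads and was the only exonic circle listed in 3 libraries. Circles of exon 30 and of exon 25 were listed in both total RNA libraries, with 1 read in each. The circles of exon 42 (chr1:71637341-71637466, 126 nt) and of exons 25 and 26 (chr1:71657503-71659224, 273 nt) had 3 reads each in total RNA 2 alone. A circle of 377 nt from the assembled model (chr1:71632481-71632857) and those of exon 43 and of exon 11 had 1 read each, also in total RNA 2. The 12 circles other than those of exons 12, 30 and 25 were each listed in 1 library, and 7 of the 15 had 1 read in all.

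The longest exonic circle ran from exon 25 to exon 31 (chr1:71651544-71659224, 1095 nt spliced), with 3 reads in RPAD 2, and ended before the 270 nt exon. No listed exonic circle contained that exon. Of the 15 circles, 11 (73.3%) were a single exon, against 952 of the other 4059 in the series (23.5%). Their median spliced length was 169 nt against 514 nt, and their median flanking intron was 1061 nt against 3909 nt. These are descriptions over circles with few reads, and no test was made of them. The number of exonic circles was 5 and 8 in the total RNA libraries and 0 and 6 in the RPAD libraries, so the groups overlapped (exact two-sided permutation p = 0.667). After thinning to 35981 back-splice reads it was 4.85, 8, 0 and 2, with no overlap (exact permutation p = 0.333, the smallest possible).

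The transcript model named beside the circles varied by library. In RPAD 1 all circles of the locus were assigned to ENSMUST00000055226, and in RPAD 2 and total RNA 1 all were assigned to ENSMUST00000097700. In total RNA 2, 77.0% of the reads were on ENSMUST00000097700 and the other 76 reads, on 52 circles, on an assembled model. Introns were matched by the position of the intron named in each file, so the counts of introns that share a 5' splice site depend on the model named.

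The hosts whose share of all back-splice reads was most like that of the locus were found by the mean absolute log2 difference over the 4 libraries. The locus itself stood at 1.05, 0.920, 1.01 and 0.735% and ranked 3 of 6532 hosts by mean. The most alike was chr16:94605519-94676590, with a mean difference of 0.399 and 374, 221, 1188 and 953 reads, of which 15.2% were intronic. The next was chr2:52006057-52175258, with 0.565 and 236, 163, 1818 and 1651 reads, of which 98.1% were intronic. The third was chr19:41558091-41630559, with 0.604 and 168, 281, 1031 and 1823 reads, of which 0.908% were intronic. Of these 3 hosts, 1 gave mainly intronic circles as the locus did.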

How the data were processed

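Each deposited file lists the circles of 1 library, with raw counts of back-splice reads per circle, per the file headers. The deposited files also give a score per junction, per the file headers. Per the submitters' processing notes, cutadapt, TopHat, Cufflinks 2.2.1 and mm9 were used; the sources used here do not give the back-splice caller. Totals ranged from 35981 to 191246 reads. Groups and replicate numbers came from the sample titles.

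Circles were matched between files by position and strand, and one absent from a file was given 0 reads. Circles, introns and hosts were tested over the whole tables with edgeR 4.0.16 (TMM, quasi-likelihood, filterByExpr with a minimum count of 5 and total of 10, adjusted p under 0.05) in R 4.3.3. The code was run on simulated host counts with set spreads and fold changes, which does not measure its power in these data. DESeq2 1.42.0, library totals, no filter, 10 reads in 2 libraries, a replicate block and leaving out each library were alternatives. Single shares were compared by exact permutation (scipy 1.17.1). The likeness of hosts used a pseudocount of 0.01 percentage points. Named introns were the 5 with the highest mean share, named circles the 8 highest. Members and lists were chosen with earlier results of these data known. Sequences were not used here.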

Additional observations from a re-analysis of the deposited data

How the results depend on the processing

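The difference in share of intronic reads (-0.0913 percentage points) ran from -0.197 to 0.0146 over leaving out each library, and was 0.0128 with score 0 junctions alone. Among values that did not pass the test, the log2 change of intron 11 ran from -2.25 to 0.13 over leaving out each library, that of the 110 nt circle from -1.02 to 0.081 and that of the 112 nt circle from -0.087 to 0.48. Without a filter the 113 nt and 110 nt circles stood at 0.23 and 0.25. The difference in number of exonic circles (-3.5) ran from -6.5 to -0.5 over leaving out each library and was 0 with at least 5 reads per circle. The share of the leading exonic circle differed by -87.1 to 0 points over leaving out total RNA 1, total RNA 2 or RPAD 1 (0 without total RNA 1), and by -100 with at least 5 reads per circle. Over leaving out each library, 0 to 1 circles and 0 to 1 introns of the locus were called. Over the whole tables, where edgeR called 0, it called 75 hosts, 35 circles and 17 introns higher and 459, 149 and 255 lower without RPAD 1, and 56, 17 and 20 higher and 564, 197 and 343 lower without RPAD 2. These fits assume that the lone RPAD library varies like total RNA. The cause was not tested.

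Same-numbered libraries hardly deviated together (correlation of their deviations 0.0127 for hosts, 0.0411 for circles and 0.0775 for introns). This check cannot exclude that they are paired, because the RPAD libraries were themselves unlike each other. Log2 levels of both total RNA libraries correlated at r = 0.370 for hosts, 0.392 for circles and 0.244 for introns. For both RPAD libraries r was 0.136, 0.0194 and -0.0114. With RPAD libraries this unlike each other, a lack of calls does not show that the groups are alike. With the replicate block the log2 change of the locus was -0.45 with an edgeR adjusted p of 1, and 0 of its circles and introns were called. Testing circles with score 0 junctions alone, summing introns per 5' splice site, or taking intronic reads of hosts alone (log2 change -0.78), all 3 chosen after seeing the data, changed no call. The 7 exonic circles with 1 read in all cannot be compared between libraries at this depth.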
